A study of Mus musculus with 12 samples.

Results

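A set of 57 genes was close to silent in control multipotent progenitors of the mouse fetal liver and was read in every Setdb1 mutant library of the same cells. The genes were chosen by their level in CPM (expected counts per 1000000 counts of a library, with library sizes scaled by the TMM method over all 12 libraries). A member had to stand under 0.5 CPM in each of the 3 control MPP libraries and at 1 CPM or more in each of the 3 mutant MPP libraries. Of the 24054 genes in the tables, 66 met these thresholds, or 0.274%. A list of named genes, among them Fbp2 and Tex19.1, was then left out together with the protocadherin and Hox genes, which took away 9 of the 66. Because the MPP levels chose the members, they are given below as a description with no test. The LT-HSC libraries were not used by the thresholds and carry the tests.

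Setdb1 codes for an enzyme that methylates histone H3 at lysine 9. It is brought to DNA by partner proteins, and the mark keeps retrotransposons and a number of genes of other tissues, germ cell genes above all, silent in many cell types. Blood stem cells and progenitors read few genes of other tissues, and which of those are read once such silencing is weakened is one way to see what it covers.

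The libraries came from mouse fetal liver at E13.5 (the embryonic day). LT-HSC (long-term haematopoietic stem cells) were CD150+CD48- LSK cells, while MPP (multipotent progenitors) were CD150-CD48+ LSK cells. LSK stands for cells without lineage markers that carry Sca-1 and Kit. There were 3 libraries for each of control LT-HSC, mutant LT-HSC, control MPP and mutant MPP. All mutants were Setdb1 p/p;vav-cre. Among the controls, Setdb1 +/p;+/+ was the genotype of LT-HSC control 1 and of the first pair of MPP controls, and Setdb1 +/p;vav-cre that of the other LT-HSC controls and MPP control 3. All control fetuses thus carried a p allele, which the labels do not define, and some carried the Cre transgene, whose vav promoter is active in blood cells and their precursors. About 500 to 1000 cells were sorted per LT-HSC library and 20000 per MPP library. The labels do not say whether libraries came from separate fetuses, or whether LT-HSC and MPP libraries share fetuses, so p-values reflect the spread of these libraries alone, part of which may be technical.

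Summed expected counts ran from 10119416 to 14113198 per library, so that 1 count was worth 0.0664 to 0.0965 CPM. Setdb1 itself was read in all 12 libraries, at 66.3 to 108 CPM in LT-HSC and 86.6 to 141 CPM in MPP. It did not pass the test in LT-HSC (log2 fold change -0.27, SE 0.165, edgeR adjusted p = 0.651), and a sum over the whole gene does not check the genotype labels. The sorting markers followed the gates: Slamf1, which encodes CD150, stood at 34.6 to 41.5 CPM in LT-HSC and 1.08 to 2.41 CPM in MPP, and Cd48 at 10.6 to 30.6 CPM in LT-HSC and 149 to 261 CPM in MPP. Kit stood between 819 and 1087 CPM in all libraries. Ly6a, which encodes Sca-1, stood at 26.3 to 35.3 CPM in MPP controls and 13.7 to 16.9 CPM in MPP mutants, without overlap, and at 33.2 to 43.9 and 24.1 to 94.2 CPM in LT-HSC controls and mutants. Marker sums of other cell types differed between the groups as well. Summed hepatoblast markers (18 genes) stood at 584 to 1907 CPM in LT-HSC controls, 103 to 516 CPM in LT-HSC mutants, 291 to 608 CPM in MPP controls and 109 to 142 CPM in MPP mutants. Summed macrophage markers (15 genes) stood at 1563 to 2054, 604 to 2032, 1651 to 2345 and 447 to 620 CPM in the same order of groups. Red cell markers (27 genes) summed to 2145 to 3671 CPM in MPP controls and 6650 to 10250 CPM in MPP mutants. In MPP, lymphoid markers (19 genes) summed to 945 to 1000 CPM in controls and 357 to 500 CPM in mutants, and megakaryocyte markers (16 genes) to 395 to 415 and 251 to 270 CPM. No member belongs to any of these 5 lists, and the part of such cells in the members' levels was not tested. In bulk samples, fewer cells that read a gene and less RNA per cell cannot be told apart.

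In mutant MPP the 57 genes were read at low levels. Their mean over the 3 mutants ran from 1.15 to 9.87 CPM with a median of 2.73 CPM, and 9 of them reached 5 CPM. Per transcript length, the median member stood at 2.21 TPM, against 20.6 TPM over the 11955 genes with a mean of 1 CPM or more in mutant MPP. The highest members on that scale were Ly6k at 15.3 TPM, Cd209c at 8.54 TPM and Ly6c1 at 8.24 TPM. Over the 3 mutant libraries the members had between 39 and 330 counts each, and over the 3 controls at most 16. A total of 12 members had no count in any MPP control. The same 57 genes summed to 7.60, 7.80 and 8.32 CPM in MPP controls 1, 2 and 3 and to 144, 232 and 194 CPM in MPP mutants 1, 2 and 3.

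**Figure D1:**
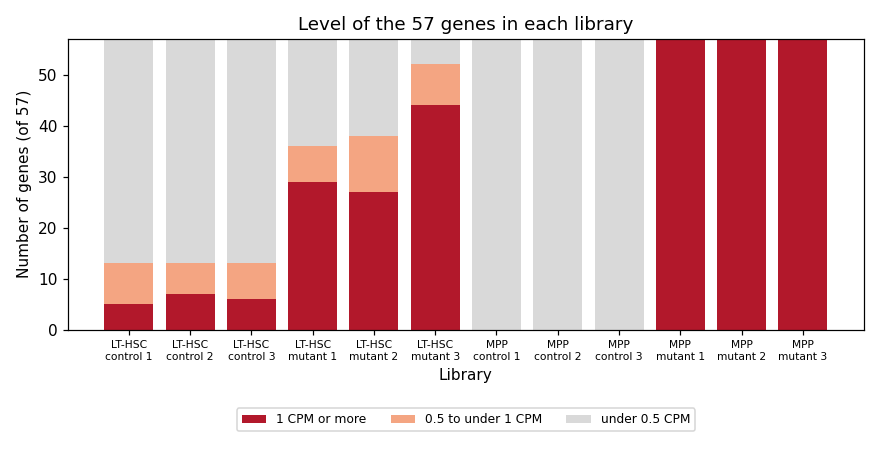
Number of the 57 genes at 1 CPM or more, from 0.5 to under 1 CPM, and under 0.5 CPM in each of the 12 libraries; the MPP bars are fixed by the choice of the genes. In LT-HSC, 5 to 7 genes reach 1 CPM in the controls and 27 to 44 in the mutants.

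In LT-HSC, which the thresholds did not use, most members were also low in controls and higher in mutants. The summed level was 27.0, 26.1 and 22.8 CPM over control libraries 1, 2 and 3, against 99.9, 81.2 and 147 CPM over mutant libraries 1, 2 and 3, with no overlap between the groups. In LT-HSC mutant 3, 44 of the 57 genes stood at 1 CPM or more, against 29 in mutant 1 and 27 in mutant 2. Mutant 3 had the highest LT-HSC mutant value for 34 members, beside 31.9% of all genes with a count in these mutants. The mean was higher in the mutants for 54 members, lower for Sec14l4 and Ces1d, and at 0 in both groups for Serpinb9g. Every LT-HSC mutant stood above every LT-HSC control for 37 of the 57 members, and for 0 members did every mutant stand below every control. Some of the 37 were separated by scaling alone. For Amn the lowest mutant and the highest control, at 0.0965 and 0.0752 CPM, were 1 count each. For Dazl, Slc9b1 and Acoxl these values were 0.493 and 0.465, 0.411 and 0.368, and 0.329 and 0.301 CPM. Those gaps are smaller than the worth of 1 count, 0.0664 to 0.0965 CPM. Grhl2 and Atp6ap1l had a lowest mutant of 1 count, at 0.0821 CPM, and no count in the controls. For Myrip the lowest mutant and highest control were 0.246 and 0.150 CPM. Over the 17468 genes with a count in LT-HSC, 5.70% had every mutant above every control and 8.42% had every mutant below. Among the 4118 of those genes that were also silent in control MPP but did not meet the thresholds, the shares were 2.91% and 4.66%.

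The thresholds of the choice were then applied to LT-HSC. In the LT-HSC controls, 40 members were silent, that is under 0.5 CPM in each of the 3 libraries, 3 were on, at 1 CPM or more in each, and 14 lay between. For comparison, 41.8% of all genes and 90.9% of the 10678 other genes silent in control MPP were silent in control LT-HSC. In the LT-HSC mutants 16 members were on, 4 were silent and 37 lay between, while 48.5% of all genes and 0.421% of the other genes silent in control MPP were on. Going from silent in all LT-HSC controls to on in all LT-HSC mutants was met by 7 members, namely Slc25a31, Cd209c, Ly6k, Pla2g5, Nccrp1, Kirrel2 and Wbp2nl. It was met by 0.0187% of the other genes silent in control MPP, a set from which any gene at 1 CPM in all MPP mutants had been taken out, and by 0.0748% of all genes. The number on in every mutant was 27 without LT-HSC mutant 2, and the number going from silent to on was 13 without mutant 1 and 15 without mutant 2.

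edgeR's quasi-likelihood test, fitted on the 12847 LT-HSC genes that passed a filter on low counts, called 2 members higher in the mutants after Benjamini-Hochberg adjustment, Prr19 and Cldn10. Over all genes tested, 0.257% were called higher and 0.420% were called in either direction. Only 23 members passed the filter and 34 were not tested. Of the 23, 12 had fewer than 10 counts in each control and passed through the mutants alone, so that the direction among the tested members is not read as a result. The calls depended on single libraries: 0 members were called without LT-HSC control 1, 2 or 3 or without mutant 1, 1 without mutant 3, and 3 without mutant 2 (Cldn10, Cd209c and Olfr1372-ps1). Over all genes, 13 to 17 were called higher without a control or mutant 1, 31 without mutant 3 and 33 without mutant 2, against 33 with all libraries. A block for the replicate number left 1 member called, Cldn10, beside 0.249% of all genes called higher. With no filter on low counts, 5 members were called beside 0.258% of all genes. DESeq2 called 22 members higher beside 1.02% of all genes. Its filter uses the mean count over both LT-HSC groups. Called members such as Pla2g5 and Vmn2r96, with no count in the LT-HSC controls, passed it through the mutants alone. The number is therefore not read against that share. A joint edgeR fit of all 12 libraries, which takes the spread in part from MPP, called 21 beside 1.0%. All 57 members passed the filter of the joint fit, which the MPP mutant levels that chose them ensured. Its count is therefore not compared with that from the 23 tested above. DESeq2 and the joint fit called 20 of the same members, and 0 were called lower by either or by edgeR's separate fit. With the summed hepatoblast or macrophage markers as a covariate, 0 members were called, and over all genes 13 and 20 were called higher. The log2 fold change under these covariates was 3.06 and 3.25 for Prr19 and 2.54 with either for Cldn10.

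**Figure D2:**
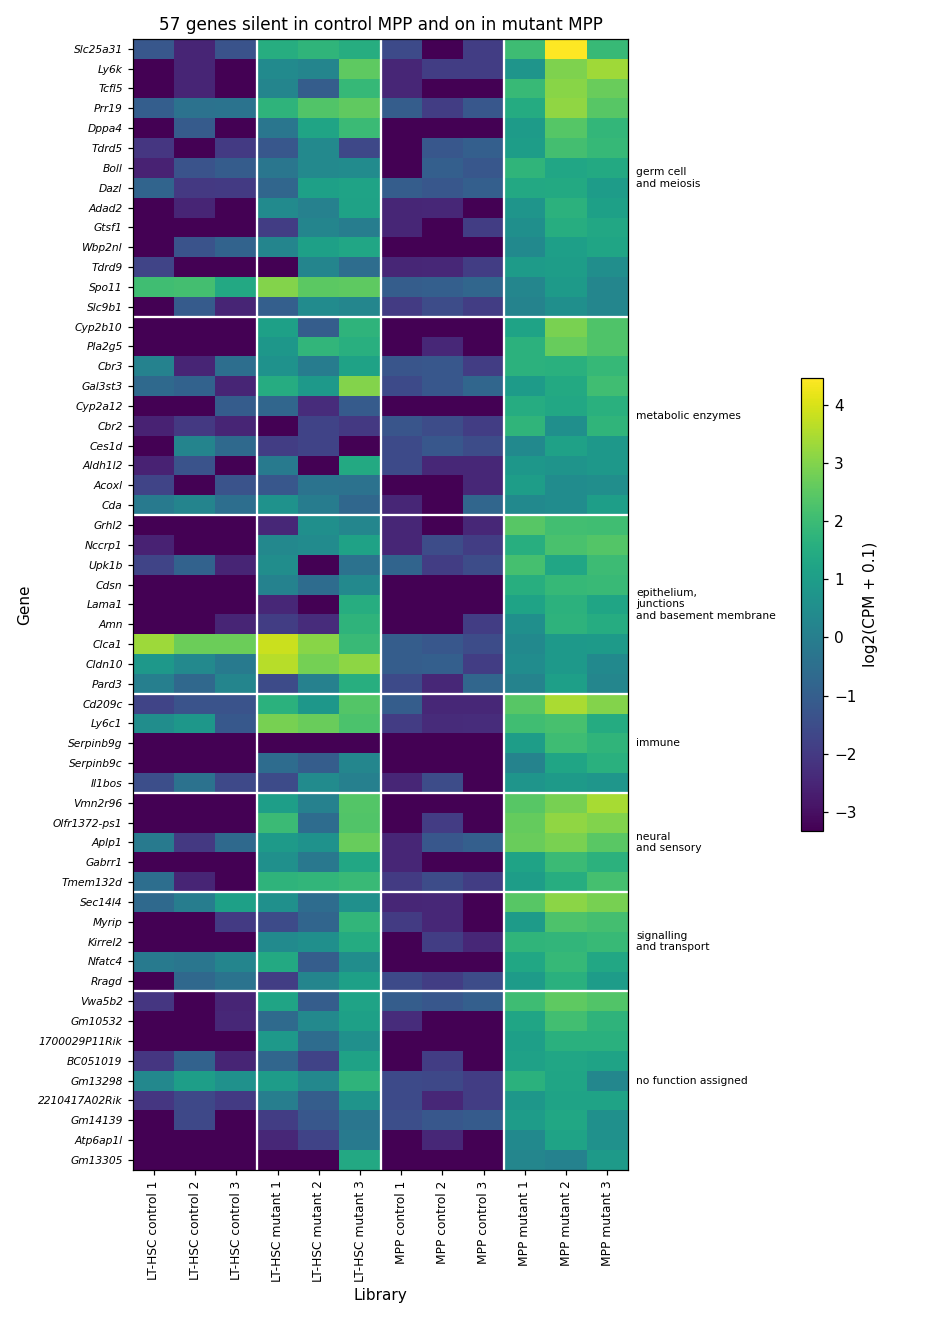
Level of each of the 57 genes (rows, by functional group) in each of the 12 libraries (columns), as log2(CPM + 0.1). The MPP columns are fixed by the choice; in LT-HSC, most rows are dark in controls 1 to 3 and lighter in mutants 1 to 3, with Clca1, Spo11 and Gm13298 light in the controls too and Serpinb9g dark throughout.

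By what they are known for, 14 members were assigned to germ cells and meiosis, 10 to metabolic enzymes, 9 to epithelium, junctions and basement membrane, 5 to neural and sensory functions, 5 to immune functions, and 5 to signalling and transport. For 9 members no function was assigned. The assignment was made by hand after the members were known. Gene lists for tissues and functions were also drawn up, with earlier results of these data known. Of these, the germ cell and meiosis list holds 6 members among its 63 genes and the epithelial list 2 among 48. The lists of axoneme and flagella genes (54), neuronal and synaptic genes (71), muscle genes (47) and placental genes (18) hold 0, although 37, 61, 34 and 17 of their genes were silent in control MPP. Holding no member does not mean that a list did not differ. The axoneme and flagella genes summed to 66.2 to 71.3 CPM in MPP controls and 267 to 281 CPM in MPP mutants, and to 81.1 to 90.2 CPM in LT-HSC controls and 237 to 272 CPM in LT-HSC mutants, with 2 of 17 tested, Dnah8 and Iqcg, called higher in LT-HSC by edgeR.

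Germ cell and meiosis genes were the largest named group. The 14 genes summed to 1.94, 2.25 and 2.81 CPM in MPP controls, against 29.5, 74.1 and 47.1 CPM in the MPP mutants. In LT-HSC they summed to 5.71, 6.70 and 4.66 CPM in controls, against 21.4, 28.3 and 38.2 CPM in mutants. All LT-HSC mutants were above all LT-HSC controls for 13 of the 14 genes, the exception being Tdrd9, beside 5.70% of genes with a count in LT-HSC. Not all of the 13 were clearly apart. For Dazl, Slc9b1 and Tdrd5 the lowest mutant and highest control were 0.493 and 0.465, 0.411 and 0.368, and 0.219 and 0.150 CPM. Those gaps are worth about 1 count or less. Of the 63 genes of the fixed germ cell list, 21 were tested in LT-HSC, 2 were called higher (Stag3 and M1ap, which are not members) and 0 lower. The median log2 fold change was 1.08 against 0.03 over all genes tested. The list holds 6 members, and tested genes such as Slc25a31 passed the filter through the mutants alone. That favours a positive median, so it is not read as a result.

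Prr19, which encodes a protein needed for meiotic crossovers, was one of the 2 members called, and one of those that passed the filter through the mutants alone (24 counts over the 3 controls, under 10 in each). It measured 0.398, 0.663 and 0.677 CPM in the control LT-HSC libraries, against 3.20, 5.02 and 5.85 CPM in the LT-HSC mutants, and each mutant lay far above each control. Its log2 fold change in LT-HSC was 3.05 (SE 0.45, edgeR adjusted p = 0.0456; 0.579 ± 0.157 against 4.69 ± 1.35 CPM, SD, n = 3 each). The adjusted p was 0.0563 with the replicate block, and between 0.0701 and 0.21 with any 1 LT-HSC library left out, so that every library was needed for the call. In MPP, Prr19 stood at 0.389, 0.166 and 0.331 CPM in controls, against 2.66, 8.86 and 5.31 CPM in mutants. Per length, its mean in the mutants was nearly the same in both cell types, 7.18 TPM in LT-HSC and 7.22 TPM in MPP.

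Slc25a31 encodes an ADP/ATP carrier of male germ cell mitochondria. Its MPP levels were 0.233, 0 and 0.165 CPM in controls, against 4.03, 21.9 and 3.71 CPM in mutants, so that mutant 2 alone set its place as the member with the highest mean. In LT-HSC, by contrast, the mutants lay close together at 2.79, 3.28 and 2.78 CPM, above controls at 0.332, 0.0737 and 0.301 CPM. It just missed the threshold (edgeR adjusted p = 0.0551).

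Other genes of this group were low and uneven. Ly6k, a surface protein of the testis, stood at 1.56, 7.68 and 10.0 CPM in the MPP mutants and at 1.23, 1.06 and 5.70 CPM in the LT-HSC mutants, against 1 count in all in the LT-HSC controls. Tcfl5, a transcription factor of spermatocytes, stood at 3.66, 8.39 and 6.31 CPM in the MPP mutants and at 1.07, 0.386 and 3.58 CPM in the LT-HSC mutants. For Dppa4, a chromatin protein of pluripotent and germ cells, there was no count in the MPP controls, and the mutants stood at 1.83, 5.24 and 3.46 CPM in MPP and 0.739, 2.22 and 3.87 CPM in LT-HSC. All 3 genes were lowest in mutant 1 of MPP.

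Several members belong to the RNA-binding and piRNA machinery of germ cells, in which small RNAs guide proteins against transposons. Dazl and Boll are related RNA-binding proteins of germ cells. Dazl stood at 2.47, 2.53 and 1.85 CPM in the MPP mutants and at 0.493, 2.03 and 2.19 CPM in the LT-HSC mutants, with the LT-HSC controls at 0.147 to 0.465 CPM. Boll stood at 3.30, 2.35 and 2.53 CPM in the MPP mutants and at 0.739, 1.16 and 1.24 CPM in the LT-HSC mutants, with the LT-HSC controls at 0.0664 to 0.376 CPM. For both, the nearest control and mutant of LT-HSC were under 0.5 CPM apart. Tdrd5, Tdrd9 and Gtsf1, factors of the piRNA pathway, had means of 3.27, 1.69 and 2.21 CPM in the MPP mutants and of 0.569, 0.549 and 0.701 CPM in the LT-HSC mutants, that is lower in LT-HSC for all 3. Adad2, an RNA-binding protein of male germ cells, had 1 count in the LT-HSC controls and stood at 1.23, 0.965 and 2.12 CPM in the LT-HSC mutants, close to its 1.56, 3.07 and 2.02 CPM in the MPP mutants. Wbp2nl, a sperm head protein, had means of 1.81 CPM in LT-HSC mutants and 1.82 CPM in MPP mutants.

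Spo11, the enzyme that makes the DNA breaks of meiosis, was a different case. It was on in the LT-HSC controls, at 4.11, 4.27 and 2.48 CPM, and stood at 7.97, 5.60 and 5.70 CPM in the LT-HSC mutants. In MPP it lay just under the threshold in the controls, at 0.389, 0.416 and 0.496 CPM, and mutant levels were 1.10, 1.81 and 1.10 CPM. The LT-HSC groups did not overlap, but the difference was not called (log2 fold change 0.86, SE 0.326, edgeR adjusted p = 0.465). Slc9b1, an ion exchanger of sperm, was the lowest member, at 1.15 ± 0.181 CPM in the MPP mutants and 0.921 ± 0.449 CPM in the LT-HSC mutants (SD, n = 3 each).

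The promoters of 3 of these germ cell genes are shown because they hold an E-box, the letters CACGTG, which read the same on both strands and are known from many promoters of germ cell genes. Each line gives the 250 bases before the first listed start of the gene, 5′ to 3′ on the strand of the gene, from RefSeq on GRCm38.p6, with the E-box in capitals. Slc25a31 is on the plus strand at chr3:40708621-40708870, Boll on the minus strand at chr1:55363754-55364003 and Tdrd9 on the plus strand at chr12:111971309-111971558. Slc25a31 and Boll hold 1 E-box each and Tdrd9 holds 2.
Slc25a31: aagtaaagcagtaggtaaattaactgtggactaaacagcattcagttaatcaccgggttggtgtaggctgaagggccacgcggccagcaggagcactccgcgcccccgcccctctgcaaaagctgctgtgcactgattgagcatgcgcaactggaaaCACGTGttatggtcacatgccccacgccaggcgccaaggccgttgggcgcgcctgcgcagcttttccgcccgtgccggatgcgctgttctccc
Boll: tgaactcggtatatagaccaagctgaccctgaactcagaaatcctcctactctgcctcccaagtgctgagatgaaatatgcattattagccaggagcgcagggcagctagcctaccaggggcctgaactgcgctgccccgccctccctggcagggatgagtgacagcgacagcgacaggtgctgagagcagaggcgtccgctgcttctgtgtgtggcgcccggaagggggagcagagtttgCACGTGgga
Tdrd9: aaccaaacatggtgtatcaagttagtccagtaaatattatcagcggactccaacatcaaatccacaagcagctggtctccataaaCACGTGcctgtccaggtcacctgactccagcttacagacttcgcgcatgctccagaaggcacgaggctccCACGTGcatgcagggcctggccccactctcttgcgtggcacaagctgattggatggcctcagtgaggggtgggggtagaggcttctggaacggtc

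Over the window from 250 bases before to 50 bases after the first listed start, promoters were at hand for 41 of the 57 members, 10 of them in the germ cell group. The E-box lay in the window of 4 of these 10 (Slc25a31, Boll, Adad2 and Tdrd9) and of 1 of the other 31 (Amn), against 8.17% of 17892 promoters of genes in the tables and 5.04% of 7220 promoters of other genes silent in control MPP. The germ cell members were also richer in CpG: the median ratio of observed to expected CpG was 0.636 in the 10 germ cell promoters and 0.317 in the 31 others, beside 0.582 over all genes and 0.238 over the other silent genes. Further motifs were searched on both strands. The E2F6-type motif, spelled GCGGGAA, lay in 3 of the 41 windows (7.32%), in 6.08% of those of all genes and in 2.53% of those of the other silent genes. For the ETS core, spelled CCGGAA, the numbers were 11 windows (26.8%), 19.1% and 6.20%. The GATA-type motif, spelled AGATAA, was found in 4 windows (9.76%), against 9.94% and 14.5%. A TATA box, spelled TATAAA, was found in 5 windows (12.2%), against 13.0% and 21.4%. The motifs can overlap, and a match is a run of letters, not a bound site.

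**Figure D3:**
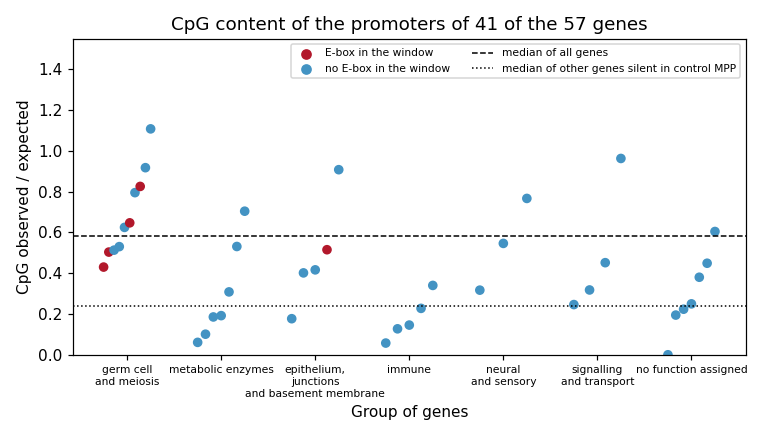
Ratio of observed to expected CpG in the 300-base promoter window of 41 members by functional group, 1 point per gene, red where the window holds an E-box. The dashed line is the median of all genes (0.582) and the dotted line that of other genes silent in control MPP (0.238); of the 5 red points, 4 are germ cell genes.

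Among the 9 genes of epithelium, junctions and basement membrane, Cldn10 was called in LT-HSC. Cldn10 encodes a claudin, a protein of tight junctions that forms ion pores between epithelial cells. It measured 1.66, 1.18 and 0.827 CPM in the control LT-HSC libraries, against 12.2, 6.95 and 8.70 CPM in the LT-HSC mutants. Its log2 fold change was 2.95 (SE 0.38, edgeR adjusted p = 0.0315; 1.22 ± 0.417 against 9.30 ± 2.69 CPM, SD, n = 3 each). The call held with the replicate block and without mutant 2 or mutant 3, and was lost without control 1, 2 or 3 (adjusted p = 0.103, 0.18 and 0.159) or mutant 1 (0.126). Its log2 fold change in those fits was 3.23, 2.93, 2.74 and 2.71. In MPP it was among the lowest members, at 0.389, 0.416 and 0.165 CPM in the controls and 1.28, 1.72 and 1.18 CPM in the mutants. The LT-HSC controls were thus about as high as the MPP mutants. Of the fixed epithelial list, 22 genes were tested in LT-HSC, with Cldn10 the only gene called and a median log2 fold change of -0.40.

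The promoters of the 2 called members are shown with each CpG in capitals. They hold 10 and 4 CpG and no E-box. The window of Prr19 lies on the plus strand at chr7:25301109-25301358 and that of Cldn10 on the plus strand at chr14:118787621-118787870.
Prr19: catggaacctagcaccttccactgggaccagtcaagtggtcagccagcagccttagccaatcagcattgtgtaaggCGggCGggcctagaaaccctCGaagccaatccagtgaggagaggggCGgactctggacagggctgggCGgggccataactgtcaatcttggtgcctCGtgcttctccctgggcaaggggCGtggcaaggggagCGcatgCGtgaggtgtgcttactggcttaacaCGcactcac
Cldn10: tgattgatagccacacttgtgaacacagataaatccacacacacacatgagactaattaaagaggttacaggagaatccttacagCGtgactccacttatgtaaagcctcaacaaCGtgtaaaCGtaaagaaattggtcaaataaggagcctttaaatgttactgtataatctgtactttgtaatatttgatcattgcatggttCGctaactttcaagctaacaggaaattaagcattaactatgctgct

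Grhl2, a transcription factor that keeps epithelial identity, had no count in the LT-HSC controls. It stood at 5.31, 4.16 and 4.13 CPM in the MPP mutants but at 0.0821, 1.35 and 1.10 CPM in the LT-HSC mutants. Cdsn, the corneodesmosin of skin, had no count in any of the 6 controls and stood at 2.84, 3.62 and 3.79 CPM in the MPP mutants and 0.986, 0.579 and 1.17 CPM in the LT-HSC mutants. With a floor of 3 counts for all controls of a cell type together, it was at least 42.1-fold higher in MPP mutants and at least 12.7-fold higher in LT-HSC mutants. Nccrp1, an F-box family protein of squamous epithelium, stood at 2.84, 4.61 and 5.14 CPM in the MPP mutants and at 1.15, 1.25 and 2.12 CPM in the LT-HSC mutants, with 1 count in the LT-HSC controls (edgeR adjusted p = 0.0691).

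Other members of this group were uneven over the LT-HSC mutants. Lama1, the laminin alpha chain of early basement membranes, stood at 2.78 CPM in LT-HSC mutant 3 and at 0.0821 and 0 CPM in mutants 1 and 2, while the MPP mutants stood at 2.20, 3.07 and 2.28 CPM. Amn, which carries the cubilin receptor to the cell surface, stood at 3.22 CPM in LT-HSC mutant 3 against 0.164 and 0.0965 CPM in the others. Upk1b, a uroplakin of the bladder, stood at 1.31, 0 and 0.658 CPM in the LT-HSC mutants, and its largest LT-HSC control was 0.442 CPM, so that the groups overlapped. Pard3, a scaffold of cell polarity, overlapped too, at 0.246, 0.965 and 2.85 CPM in the LT-HSC mutants against 0.929, 0.516 and 1.05 CPM in the controls.

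The gene named Clca1 in the tables, which RefSeq lists as Clca3a1, a chloride channel regulator, was on in LT-HSC without regard to genotype. It stood at 9.82, 6.48 and 6.39 CPM in controls, against 14.1, 8.30 and 3.80 CPM in mutants, and the groups overlapped (log2 fold change 0.24, SE 0.453, edgeR adjusted p = 0.912). Its MPP levels were 0.248 to 0.389 CPM in the controls and 1.19 to 1.77 CPM in the mutants. Together with Spo11 and Gm13298 it was on in every LT-HSC control, so that for these 3 members silence in control cells holds for MPP and not for LT-HSC.

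**Figure D4:**
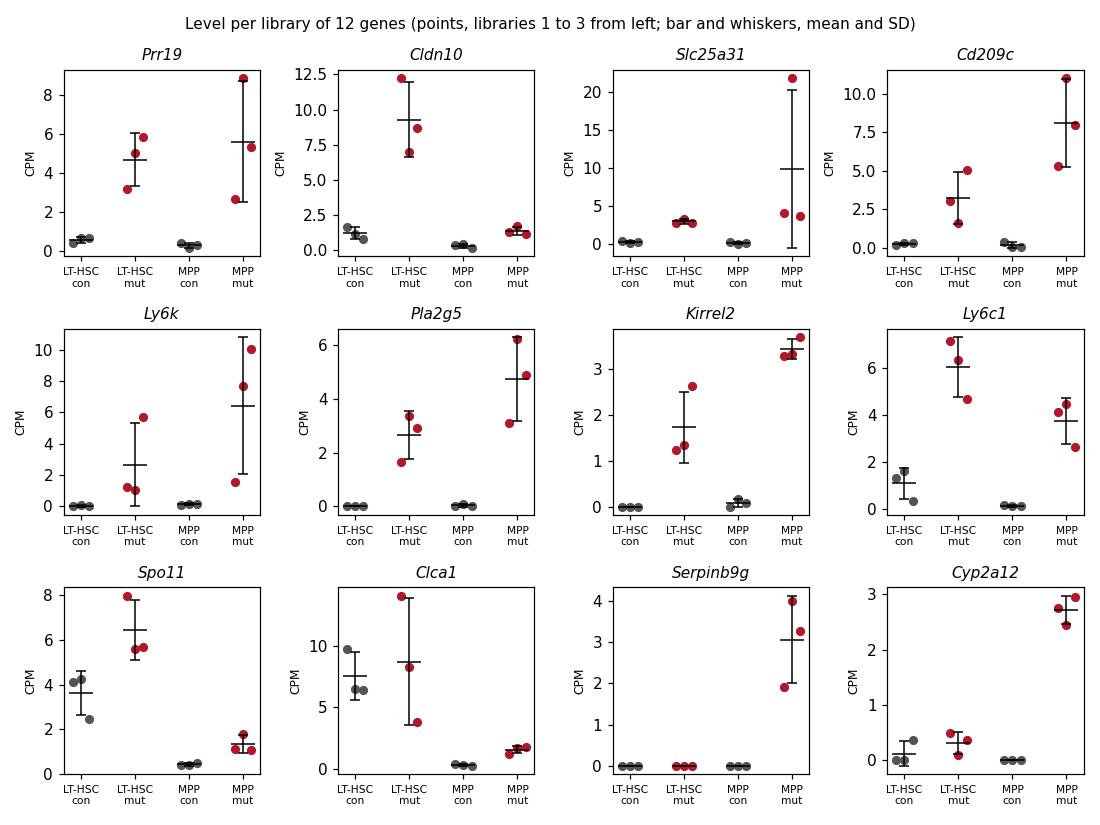
Level in CPM of 12 of the 57 genes in each library of the 4 groups, with libraries 1 to 3 from left to right in a group and the mean and SD of 3 libraries as bar and whiskers. Prr19 and Cldn10 are the genes called in LT-HSC; Spo11 and Clca1 are already on in LT-HSC controls, and Serpinb9g and Cyp2a12 stay under 0.5 CPM in all LT-HSC libraries.

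Of the 10 metabolic enzymes, 4 had all LT-HSC mutants above all controls, beside 5.70% of genes with a count in LT-HSC. Acoxl, 1 of the 4, was separated only by 0.329 against 0.301 CPM, less than 1 count is worth. Pla2g5, a secreted phospholipase, had no count in the LT-HSC controls and stood at 1.64, 3.38 and 2.92 CPM in the mutants, at least 37.0-fold higher against the floor of 3 counts (edgeR adjusted p = 0.054). In the MPP mutants it stood at 3.11, 6.24 and 4.89 CPM. Gal3st3, a sulfotransferase of sugar chains, was among the few members higher in mutant LT-HSC than in mutant MPP, at 2.71, 1.74 and 7.97 CPM against 1.83, 2.53 and 4.13 CPM. Its LT-HSC controls stood at 0.531, 0.442 and 0.0752 CPM (edgeR adjusted p = 0.182).

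Liver enzymes within this group went separate ways. Cyp2b10, a cytochrome P450 of liver, had no count in the 6 controls and stood at 2.20, 7.32 and 4.89 CPM in the MPP mutants and at 2.05, 0.386 and 3.22 CPM in the LT-HSC mutants. Cyp2a12, another liver P450, had no count in the MPP controls and stood at 2.75, 2.44 and 2.95 CPM in the MPP mutants, but it was under 0.5 CPM in all LT-HSC libraries (0.125 ± 0.217 in controls and 0.318 ± 0.202 CPM in mutants, SD, n = 3 each). Ces1d, a carboxylesterase of liver and fat, measured 0, 1.03 and 0.526 CPM in the control LT-HSC libraries, against 0.164, 0.193 and 0 CPM in the LT-HSC mutants, the reverse order of its means in MPP. Summed hepatoblast markers stood at 291 to 608 CPM in the MPP controls and 109 to 142 CPM in the MPP mutants, where these 3 enzymes were read. Over LT-HSC controls 1, 2 and 3 the markers summed to 584, 1874 and 1907 CPM, and Ces1d was at 0 in the first and read in the others. Over the LT-HSC mutants they summed to 312, 516 and 103 CPM, so that both the markers and Ces1d had lower means there. The part of hepatoblast RNA in these levels was not tested.

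The carbonyl reductases Cbr2 and Cbr3 were read at similar levels in the MPP mutants, at 2.65 ± 1.12 and 3.24 ± 0.339 CPM (SD, n = 3 each). In LT-HSC they parted: Cbr2 stayed at 0 to 0.193 CPM in all 6 libraries, whereas Cbr3 stood at 0.0737 to 0.995 CPM in the controls and 0.869 to 2.12 CPM in the mutants, with overlap. Cda, a cytidine deaminase, Acoxl, an acyl-CoA oxidase-like protein, and Aldh1l2, a mitochondrial folate enzyme, had means of 1.46, 1.51 and 1.62 CPM in the MPP mutants. In the LT-HSC mutants their means were 0.953, 0.554 and 1.13 CPM. The span of Acoxl overlaps that of Bcl2l11, which stood at 20.5 CPM in MPP controls and 34.9 CPM in MPP mutants. The counts of Acoxl were whole numbers in all 12 libraries, so none were split with another gene. Whether some of its reads came from Bcl2l11 cannot be told without strand.

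The 5 neural and sensory genes, a group made by hand, all had every LT-HSC mutant above every LT-HSC control, which held for 5.70% of genes with a count in LT-HSC. The neuronal and synaptic list, which holds none of them, had a median log2 fold change of -0.37 over 12 genes tested in LT-HSC, with 0 called. Its 71 genes summed to 86.9 to 106 CPM in the LT-HSC controls and 51.4 to 84.4 CPM in the LT-HSC mutants, and to 81.6 to 92.8 CPM in the MPP controls and 26.9 to 39.4 CPM in the MPP mutants. Aplp1, a relative of the amyloid precursor protein found in neurons, stood at 6.32, 7.32 and 5.39 CPM in the MPP mutants. Its LT-HSC levels were 0.796, 0.147 and 0.526 CPM in controls, against 1.81, 1.45 and 6.14 CPM in mutants (edgeR adjusted p = 0.333). Gabrr1, a GABA receptor subunit of retina, had no count in the LT-HSC controls and stood at 1.40, 0.772 and 2.41 CPM in the mutants. Tmem132d, a membrane protein of brain, stood at 3.20, 3.38 and 3.80 CPM in the LT-HSC mutants against 0.597, 0.0737 and 0 CPM in the controls (edgeR adjusted p = 0.18), and at 1.92, 2.80 and 4.38 CPM in the MPP mutants. It was the most even of the 5 over the LT-HSC mutants.

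Genes of odour and pheromone sensing were in this group as well. Vmn2r96, a vomeronasal receptor, had no count in the 6 controls and stood at 5.31, 7.23 and 10.8 CPM in the MPP mutants and 1.97, 0.965 and 5.04 CPM in the LT-HSC mutants. Olfr1372-ps1, an olfactory receptor pseudogene, had no count in the LT-HSC controls and stood at 3.86, 0.579 and 4.97 CPM in the LT-HSC mutants and at 6.04, 8.95 and 7.84 CPM in the MPP mutants. Against the floor of 3 counts they were at least 37.2-fold and 43.9-fold higher in LT-HSC mutants. Vmn2r96 had fractional counts in 4 of 12 libraries and Olfr1372-ps1 in 1, as reads shared between near copies give, so that their levels are less certain.

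Among the 5 immune genes, Cd209c, a lectin of the DC-SIGN family, was on in both kinds of mutant. It stood at 5.31, 11.0 and 8.01 CPM in the MPP mutants, at 3.04, 1.64 and 5.04 CPM in the LT-HSC mutants and at 0.199, 0.295 and 0.301 CPM in the LT-HSC controls (edgeR adjusted p = 0.0684). Ly6c1, a surface protein of myeloid and endothelial cells, measured 1.30, 1.62 and 0.345 CPM in the control LT-HSC libraries, against 7.17, 6.37 and 4.67 CPM in the LT-HSC mutants (edgeR adjusted p = 0.15), above its 4.13, 4.49 and 2.65 CPM in the MPP mutants. Its counts were fractional in 11 of 12 libraries, and reads of its near copy Ly6c2 may be among them.

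The related serpins Serpinb9g and Serpinb9c, of a family that blocks granule proteases, differed in LT-HSC. Serpinb9g had no count in any of the 6 LT-HSC libraries and stood at 1.91, 4.01 and 3.28 CPM in the MPP mutants, at least 37.8-fold above the MPP controls, which had no count. Serpinb9c had no count in the 6 controls and stood at 1.01, 2.26 and 2.95 CPM in the MPP mutants and 0.575, 0.386 and 1.10 CPM in the LT-HSC mutants. Il1bos, a noncoding RNA over Il1b, stood at 1.56, 1.81 and 1.60 CPM in the MPP mutants, where Il1b itself had a mean of 0.0908 CPM, and overlapped between the groups in LT-HSC.

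Of the 5 genes of signalling and transport, Kirrel2, a cell adhesion protein of the nephrin family, was the most even. It stood at 3.30, 3.34 and 3.71 CPM in the MPP mutants and 1.23, 1.35 and 2.63 CPM in the LT-HSC mutants, with no count in the LT-HSC controls (edgeR adjusted p = 0.0938). Myrip, a linker of myosin and Rab proteins, stood at 1.83, 4.79 and 4.30 CPM in the MPP mutants but at 0.246, 0.483 and 3.36 CPM in the LT-HSC mutants, where mutant 3 carried most of the signal. Sec14l4, a lipid-binding protein, stood at 5.31, 8.59 and 7.16 CPM in the MPP mutants. In LT-HSC, however, it did not differ by genotype beyond its spread, at 0.531, 0.884 and 2.03 CPM in controls and 1.40, 0.579 and 1.39 CPM in mutants (log2 fold change 0.02 although the mean CPM was slightly lower in mutants, SE 0.635, edgeR adjusted p = 0.996). Nfatc4, a transcription factor of calcium signalling, had no count in the MPP controls but stood at 0.796, 0.737 and 1.05 CPM in the LT-HSC controls, and at 2.55, 0.386 and 1.32 CPM in the LT-HSC mutants. Rragd, a GTPase of the mTORC1 pathway, overlapped between the LT-HSC groups as well.

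The 9 members with no function assigned had means of 1.30 to 4.90 CPM in the MPP mutants. All LT-HSC mutants were above all controls for 5 of them, beside 5.70% of genes with a count in LT-HSC. Vwa5b2, the highest, stood at 4.03, 5.69 and 4.97 CPM in the MPP mutants and 2.22, 0.386 and 2.19 CPM in the LT-HSC mutants. The gene 1700029P11Rik had no count in the 6 controls and was at least 32.7-fold higher in MPP mutants and at least 17.2-fold higher in LT-HSC mutants. Gm13298, which RefSeq lists as Fam205a2, was on in the LT-HSC controls at 1.13, 1.94 and 1.43 CPM and stood at 1.89, 1.13 and 3.26 CPM in the mutants. Gm13305, which lies 353834 bases from it, was read in LT-HSC mutant 3 alone of the LT-HSC libraries, at 2.51 CPM. These symbols belong to regions with near copies, and the counts of Gm13298 were fractional in 8 of 12 libraries and those of Gm13305 in 4. The span of BC051019 overlaps that of Akip1, which stood at 34.8 to 44.4 CPM on average in the 4 groups. The counts of BC051019 were whole numbers in all 12 libraries, so none were split with another gene. Whether some of its reads came from Akip1 cannot be told without strand.

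Mutant levels were lower in LT-HSC than in MPP for 51 of the 57 members, which the choice of genes by their MPP level favours. The 6 members that were higher in LT-HSC mutants were Cldn10, Clca1, Spo11, Ly6c1, Gal3st3 and Tmem132d. Only Clca1 and Spo11 were higher in LT-HSC controls than in MPP mutants.

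RefSeq's genes on GRCm38.p6 include all 57 members, 53 as protein coding, 3 as lncRNA and 1 as a transcribed pseudogene. They lay on 18 chromosomes, with 7 on chromosome 7 and 6 each on chromosomes 4 and 15. The only members within 100 kb of each other were Aplp1 (chr7:30434980-30445582) and Kirrel2 (chr7:30447766-30457515), with 2184 bases between them and both on the minus strand. Within 500 kb, a distance chosen after the positions were seen, 14 members (24.6%) had another member, compared with 3.69% of 10610 other genes silent in control MPP. The pairs were Aplp1 with Kirrel2, Gabrr1 with Rragd, Ly6c1 with Ly6k, 1700029P11Rik with Wbp2nl, Serpinb9c with Serpinb9g, Gm13298 with Gm13305 and Cda with Pla2g5. Some of these pairs are members of 1 gene family. In the Aplp1 and Kirrel2 pair, both genes had their highest LT-HSC level in mutant 3. Of the genes left out of the set, Entpd3 lies 63717 bases from Myrip, and it stood at 5.18, 4.25 and 7.60 CPM in the LT-HSC mutants against 0 to 0.295 CPM in the controls. No gene within 100 kb of a member was itself called in LT-HSC. Dzip1, which lies 992 bases from Cldn10 and was picked out after its values were seen, had means of 4.13 CPM in LT-HSC controls and 13.9 CPM in LT-HSC mutants (log2 fold change 1.80, edgeR adjusted p = 0.137), and of 3.87 and 18.0 CPM in MPP controls and mutants.

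Genes near the thresholds show how fine the boundary is. Just inside were Gm13305, Pard3 and Serpinb9c, with lowest MPP mutant values of 1.0, 1.01 and 1.01 CPM, and Cda, Gal3st3 and Pard3, each with a highest MPP control value of 0.496 CPM. Just outside were Prss42, Rcan2 and Gm12429, whose lowest mutant values were 0.994, 0.994 and 0.981 CPM, and Xlr3a, Gm9895 and Gpat2, whose highest control values were 0.533, 0.544 and 0.544 CPM. Under thresholds of 0.25 and 2 CPM the set would hold 19 genes.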

How the data were processed

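The 12 deposited tables, 1 per library, hold RSEM's expected counts and TPM per gene, per the file headers, and the submitters' processing notes name STAR, RSEM and the mm10 genome; their versions were not given there. TPM values in the tables were computed by the authors with RSEM, per the file headers. The expected counts deposited by the authors are estimates and were rounded to whole numbers for tests; CPM used them unrounded. The kit named in the labels is not one that keeps strand. Libraries were made from 10 ng of RNA.

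Groups and replicate numbers came from the titles. Differences in LT-HSC were tested with edgeR 4.0.16 in R 4.3.3 (quasi-likelihood test, TMM, filterByExpr with a minimum count of 10 and a minimum total of 15, Benjamini-Hochberg adjustment over all genes tested, threshold 0.05), and with DESeq2 1.42.0 as an alternative. The script was tested on simulated data. Genes were matched to RefSeq by transcript accession (23763) or symbol (186). Floors (3 counts over a group) cover counting error only. SD values are over the libraries of a group, and SE values come from the edgeR fit.

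The members and lists were chosen with earlier results of these data known. Named are the members with the highest levels in each cell type, those called, those on or silent throughout in LT-HSC, those in the fixed lists, those at the thresholds and neighbouring pairs; further members were chosen after their values were seen. In LT-HSC, the deviation of a control from its group mean correlated with that of the mutant of equal number (r over genes of 0.144, 0.193 and 0.261), although the meaning of the numbers is not labelled. Between unequal numbers, r lay from -0.268 to 0.0808. These values are not independent, since deviations from a group mean cancel out. The tests reported have no block; the fit with the number as a block is given beside the calls it changes.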

Additional observations from a re-analysis of the deposited data

How the results depend on the processing

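The number of members was 53 with plain library totals, with DESeq2 size factors or with TMM over the MPP libraries alone, 19 with thresholds of 0.25 and 2 CPM, and 60 to 88 with any 1 MPP library left out (88 without MPP mutant 1). Members with every LT-HSC mutant above every control numbered 37 under both other scalings and 37 to 43 with 1 LT-HSC library left out, settings added after the data were seen. Members silent in every LT-HSC control numbered 28 with the threshold at 0.25 CPM and 40 to 42 with 1 library left out. Members on in every LT-HSC mutant numbered 7 with the threshold at 2 CPM and 16 to 27 with 1 library left out, and those going from silent to on numbered 0 and 7 to 15.

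Genes called in LT-HSC, 54 in all, numbered 284 by DESeq2, 250 in the joint fit, 14 with only the vav-cre controls, 13 with the hepatoblast covariate, 24 with the macrophage covariate, 48 with the replicate block and 13 to 102 with 1 library left out (14, 15 and 13 without controls 1, 2 and 3, 17 without mutant 1 and 102 without mutant 2). Members called higher, 2 in all, numbered 5 with no filter on low counts (Prr19, Cldn10, Cd209c, Pla2g5 and Slc25a31, beside 0.258% of all genes), 22 by DESeq2, 21 in the joint fit, 1 with the replicate block, 0 with only the vav-cre controls or with the hepatoblast or macrophage covariate, and 0 to 3 with 1 library left out. The fit with only the vav-cre controls is the same fit as that without LT-HSC control 1, so it is not a separate check. The causes were not tested. The log2 fold change lay between 2.83 and 3.26 for Prr19 and between 2.54 and 3.23 for Cldn10 over all these fits. The 34 members that did not pass the filter on low counts reached its cutoff in too few LT-HSC libraries for the main test. Olfr1372-ps1, for example, had 121 counts over the LT-HSC mutants but stood at 0.579 CPM in mutant 2. In the joint fit all 57 members passed, through the MPP levels that chose them.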

Other observations

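The members were not evenly high over the mutants. MPP mutant 2 had the highest value of the 3 MPP mutants for 35 of the 57 members, and for 11 of the 14 germ cell genes, where 34.5% of all genes with a count in MPP mutants had their highest value in it. This library is the only male MPP mutant (Ddx3y at 112 CPM) and had the highest sum of red cell markers, 10250 CPM against 6650 and 9450 CPM in mutants 1 and 3; their part in the result was not tested. In LT-HSC, mutant 3 had the highest value for 34 of the 57 members, against 31.9% of all genes, and for 5 of the 5 neural and sensory genes. It had the lowest sum of hepatoblast markers of the LT-HSC mutants, 103 CPM against 312 and 516 CPM, and the highest sum of red cell markers, 7520 CPM against 4658 and 4141 CPM; their part in the result was not tested either.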
